A study of Bos grunniens with 18 samples.

Results

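Of the 358 solute carrier (SLC) genes in an expression table of 18467 genes from yak epididymis, 128 carried at least 1 N6-methyladenosine (m6A) peak in the authors' deposited comparison tables. These members were chosen by symbol (SLC followed by a number, in any case) and by the listing of their gene identifier in at least 1 of 3 comparisons of epididymal regions. The listing of a peak is therefore no finding, while the size of a fold, the score of a position and the level in input libraries were not used in the choice. A peak needs reads, however, so the choice favours transcripts with higher levels. The members came from 39 SLC families, and 230 SLC genes had no listed peak. In all, 9629 genes had one.

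The tissue came from 6 healthy male yaks (Bos grunniens) aged 4 years, untreated and of no stated genotype, and was cut into cauda, corpus and caput. Each region had 3 libraries of RNA precipitated with an m6A antibody (RIP) and 3 libraries of input RNA taken before precipitation, 18 libraries in all. No label ties a library to an animal, so the spread between libraries may be technical. Whole pieces of tissue were used, so fewer cells of a type and less RNA per cell cannot be told apart.

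Solute carriers are membrane proteins that move ions, nutrients, metals and metabolites across the cell surface or the membranes of organelles, either as exchangers, as cotransporters or by facilitated diffusion. In the epididymis the epithelium uses such carriers, with channels and proton pumps, to set the acidity and solute content of the fluid in which sperm mature and are stored. N6-methyladenosine is a mark placed on adenosines of messenger RNA by a methyltransferase complex, removed by demethylases and read by binding proteins that affect splicing, stability and translation. The sequence letters of the peaks were not used here.

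A site in the comparison tables is a whole peak with the authors' log2 fold between 2 regions, its p and its adjusted p. A peak is called higher or lower here only at an adjusted p under 0.05, per the authors' deposited table. No source used here states whether the folds are relative to input, so methylation and transcript abundance cannot be told apart in them. The members had 140 sites in 103 genes for corpus over caput, 140 sites in 104 genes for cauda over caput, and 148 sites in 102 genes for cauda over corpus. In 71 members a site was listed in all 3 comparisons.

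The called peaks were few and belonged to 12 members, with 16 calls on 13 distinct peaks among 428 sites. SLC16A1, a plasma membrane carrier of lactate, pyruvate and other monocarboxylates coupled to protons, had the largest folds among them. In the authors' deposited table for corpus over caput, 4 member sites were called higher and 1 lower, against 1.12% higher and 1.86% lower of all sites. For cauda over caput the authors' deposited table called 4 member sites higher and 1 lower, against 1.41% higher and 0.861% lower of all sites. For cauda over corpus it called 2 higher and 4 lower, against 1.24% higher and 0.719% lower of all sites, per the authors' deposited table. All called together were 3.57%, 3.57% and 4.05% of member sites in these comparisons, against 2.98%, 2.27% and 1.96% of all sites, per the authors' deposited table.

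Most member folds were small. The median log2 fold over member sites was 0.00 for corpus over caput, against -0.02 over all sites of the authors' deposited table. It was 0.09 for cauda over caput, against 0.04 over all sites, and 0.08 for cauda over corpus, against 0.05 over all sites, again in the authors' deposited table. Member sites had a positive fold in 50%, 60.7% and 60.1% of cases in these comparisons, against 47.5%, 54.9% and 55.9% of all sites, per the authors' deposited table. Both cauda comparisons share the cauda libraries, and each other pair of comparisons shares a region too, so these values are set side by side and were not compared. With the threshold of 0.05 put on the unadjusted p instead, the authors' deposited table held 29 member sites for corpus over caput (20.7%, against 16.4% of all sites), 34 for cauda over caput (24.3%, against 17.2%) and 21 for cauda over corpus (14.2%, against 16.4%). Of the 34 for cauda over caput, 27 had a positive and 7 a negative fold, beside 1457 positive and 923 negative over all sites in the authors' deposited table. The split was 13 positive and 16 negative for corpus over caput, beside 1014 and 1299 over all sites, and 13 positive and 8 negative for cauda over corpus, beside 1352 and 930, per the authors' deposited table.

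**Figure D1:**
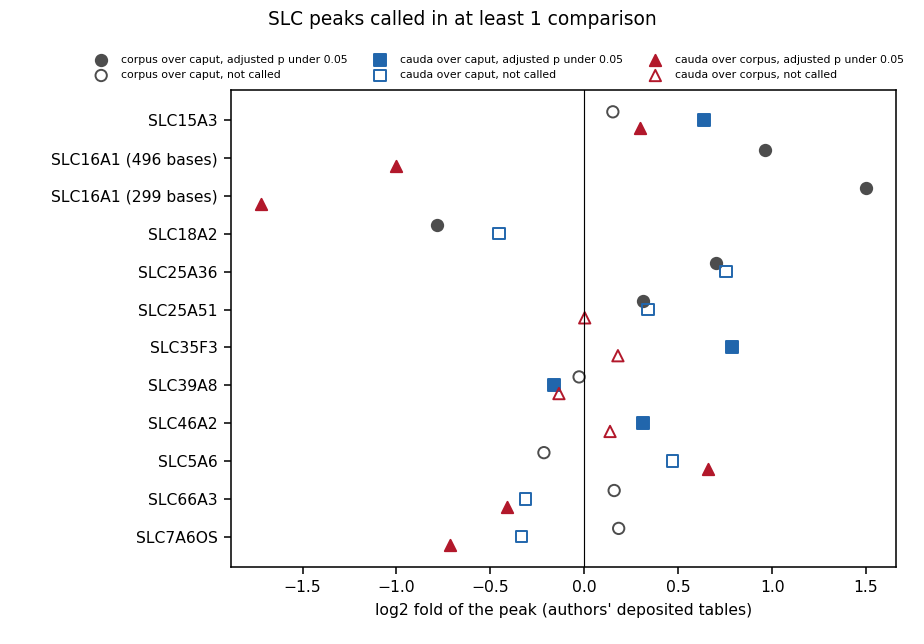
Log2 folds (x axis) of 12 SLC peaks called in at least 1 comparison, from the authors' deposited table of each comparison, with 1 row per peak, filled symbols for an adjusted p under 0.05, open ones for the rest and none where the peak is not listed. The 2 SLC16A1 peaks lie farthest from 0, at 0.96 and 1.5 for corpus over caput and at -1 and -1.72 for cauda over corpus.

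SLC16A1 (ENSBGRG00000004446) carried 4 peaks on the minus strand of chromosome 3, in the coordinates of the files. The first covered 496 bases within chr3:42319137-42321910 and the second covered 299 bases, chr3:42322306-42322604. The first was called higher in corpus over caput with a log2 fold of 0.96 and an adjusted p of 2.8e-04, per the authors' deposited table. The second was called higher there as well, with a log2 fold of 1.5 and an adjusted p of 0.001, per the authors' deposited table. Cauda over corpus gave log2 folds of -1 (adjusted p = 3e-06) and -1.72 (adjusted p = 7.8e-05) for these peaks in the authors' deposited table. Neither is listed for cauda over caput. Corpus thus stood above both other regions at these peaks.

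The other 2 peaks of SLC16A1 lie upstream in the direction of transcription and were not called in any comparison. The peak at chr3:42452555-42452803 had log2 folds of 0.39 for corpus over caput, -0.32 for cauda over caput and -0.73 for cauda over corpus in the authors' deposited table. The peak at chr3:42452902-42453249 had log2 folds of 0.07, -0.16 and -0.27 in the same order in the authors' deposited table. Their signs matched those of the called pair, at smaller sizes. The difference between the peaks of this gene was not tested.

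The lists of candidate adenosines, 1 list per region, gave 11 positions within the span of the 496-base SLC16A1 peak in corpus and 0 in cauda and in caput. Within the 299-base peak they gave 3 positions in corpus and 0 in cauda and in caput. Only 1 of the 19 SLC16A1 positions was classed as m6A by the authors' predictor, with a combined score of 0.558. A region's list comes from the same RIP libraries as the folds, so it is no independent evidence of their direction.

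Input levels of SLC16A1 were low. The deposited expression table has 9 input columns in FPKM, a level scaled to transcript length and library size,, with codes EA, EB and EC that match no label, so no code is given a region and no test was run between codes. SLC16A1 had 0.965, 0.928 and 1.23 FPKM in the libraries coded EA, 7.58, 4.40 and 1.49 FPKM in those coded EB, and 1.49, 0.422 and 0.590 FPKM in those coded EC. The libraries coded EB1_3 and EB1_4 were the highest of the 9, while EB2_1 lay at the level of EC2_2, so the codes overlapped. Since the codes have no region, the part of abundance in the SLC16A1 folds was not tested.

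Among the other calls for corpus over caput, 2 were mitochondrial carriers. SLC25A36, which carries pyrimidine nucleotides into mitochondria, had a 247-base peak within chr1:139446634-139448096 with a log2 fold of 0.70 (adjusted p = 0.036), per the authors' deposited table. Its fold for cauda over caput was 0.75 (adjusted p = 0.055), just outside the threshold in the authors' deposited table. SLC25A51, the mitochondrial NAD+ carrier, had a peak of 745 bases on chromosome 7 with a log2 fold of 0.31 (adjusted p = 0.029), per the authors' deposited table. For cauda over caput its overlapping peak had 0.34 (adjusted p = 0.26), and for cauda over corpus 0.00 (adjusted p = 0.59), per the authors' deposited table.

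The single peak called lower in corpus over caput was that of SLC18A2, the vesicular monoamine transporter that loads monoamines into storage vesicles. It lies at chr25:40798721-40798918 and had a log2 fold of -0.78 (adjusted p = 0.015), per the authors' deposited table. Cauda over caput gave -0.46 (adjusted p = 0.19), per the authors' deposited table. Its 6 candidate positions, 2 of them classed as m6A, were all in the caput list. Input levels were 7.40, 24.3 and 16.4 FPKM in the libraries coded EA, 1.72, 4.15 and 2.47 FPKM in those coded EB, and 1.30, 4.81 and 3.98 FPKM in those coded EC. The EA libraries were all above the other 6.

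For cauda over caput, SLC15A3, a lysosomal carrier of histidine and small peptides, had the lowest adjusted p. Its 449-base peak at chr29:12711839-12712287 had a log2 fold of 0.64 (adjusted p = 7.4e-05), per the authors' deposited table. It was called for cauda over corpus too, with 0.30 (adjusted p = 0.048), while corpus over caput gave 0.15 (adjusted p = 0.62), per the authors' deposited table. Candidates within this peak numbered 5 in cauda, 5 in corpus and 2 in caput. Its input levels were 3.29, 2.95 and 2.31 FPKM in the libraries coded EA, 4.63, 4.68 and 2.89 FPKM in those coded EB, and 4.79, 3.43 and 3.52 FPKM in those coded EC. The EA libraries were all below the EC libraries, and EB overlapped both.

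SLC46A2 had a 542-base peak on chromosome 7 with a log2 fold of 0.31 (adjusted p = 0.038) for cauda over caput in the authors' deposited table. The peak of SLC35F3, a member of the nucleotide-sugar carrier family whose human form is linked to thiamine transport, had 0.79 (adjusted p = 0.045), per the authors' deposited table. It covers 198 bases, joined across an intron, and the 5 candidates in its span were in the cauda list alone. Another SLC35F3 peak, at chr27:4902656-4902853, was not called, with -0.04 (adjusted p = 0.076) for cauda over caput in the authors' deposited table. Its candidates numbered 7 in cauda, 6 in corpus and 0 in caput, so the gene was not listed in cauda alone. The call of lower in this comparison was for SLC39A8, a carrier that imports zinc and manganese, with a log2 fold of only -0.16 (adjusted p = 0.032), per the authors' deposited table.

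For cauda over corpus, the calls beside SLC16A1 and SLC15A3 were for SLC5A6, SLC66A3 and SLC7A6OS. SLC5A6, the sodium-dependent multivitamin transporter of biotin and pantothenate, had a log2 fold of 0.66 (adjusted p = 0.046), per the authors' deposited table. All 8 candidates of its peak at chr9:96940227-96940474 were in the cauda list. SLC66A3 had -0.41 (adjusted p = 0.014) and none of its 11 positions was classed as m6A; the fold is from the authors' deposited table. SLC7A6OS, named for its position opposite the carrier gene SLC7A6 and not itself a carrier, had -0.71 (adjusted p = 0.034), per the authors' deposited table.

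**Figure D2:**
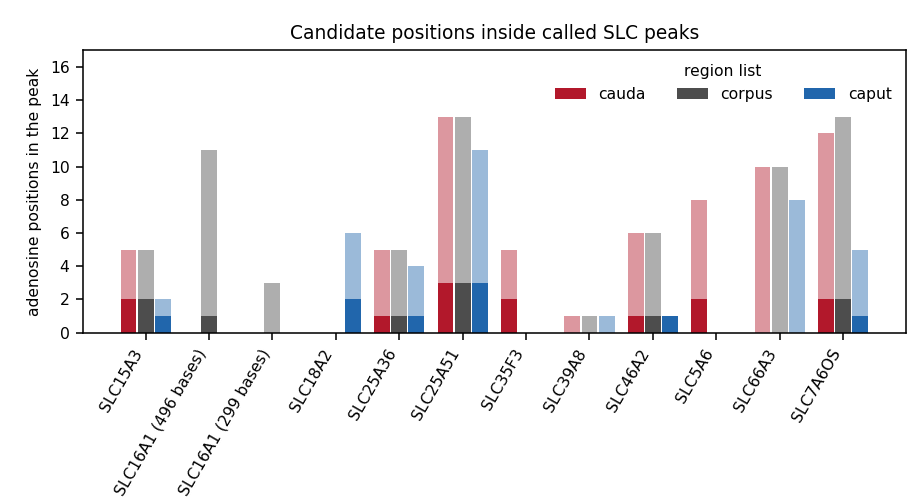
Candidate adenosine positions within the span of 12 called SLC peaks (y axis, number of positions) in the lists of cauda, corpus and caput. Pale bars count all candidates and dark bars those classed as m6A; 5 of them have candidates in 1 list alone and 7 have them in all 3.

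In 5 of the 12 called peaks described here the candidates were in 1 region's list alone, and in 7 they were in all 3 lists. The same share over all called sites was not counted, so this is not read as a trait of SLC peaks. The 5 were both SLC16A1 peaks (corpus), SLC18A2 (caput), SLC35F3 and SLC5A6 (cauda). Each of these folds pointed to the listed region in the authors' deposited table. The lists come from the same RIP libraries, and the direction of the folds was checked on sites listed in 1 region alone. The match is therefore no independent evidence.

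The members were grouped by SLC family into 7 substrate classes, plus 1 class of 3 genes that bear an SLC symbol but encode partners or neighbours of carriers (SLC9A3R1, SLC4A1AP and SLC7A6OS). Amino acid and peptide carriers had 18 members, with 1 site called higher in cauda over caput, 1 higher and 1 lower in cauda over corpus, and 0 in corpus over caput. Sugar and monocarboxylate carriers had 14 members, with 2 sites called higher in corpus over caput and 1 higher and 2 lower in cauda over corpus. The 4 calls on SLC16A1 make up most of those, and the higher one is SLC5A6, of a family that carries sugars, vitamins and other solutes. Each class had only 4 to 28 sites per comparison. The authors' deposited table called 2.98% of all sites for corpus over caput, 2.27% for cauda over caput and 1.96% for cauda over corpus. With so few sites per class, no class was tested against these shares. The calls by class are therefore not read as class traits.

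The 18 mitochondrial carriers had 2 sites called higher in corpus over caput and 0 in the other comparisons. Metal carriers had 16 members and 1 call, on SLC39A8. The class of nucleoside and nucleotide-sugar families had 16 members and 1 call, on SLC35F3. That gene was placed there by its family, while its human form is linked to thiamine transport. Carriers of organic ions, lipids, vitamins and phosphate had 21 members and 2 calls, on SLC18A2 and SLC46A2. The calls in these classes also rest on few sites and are not read as class traits.

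**Figure D3:**
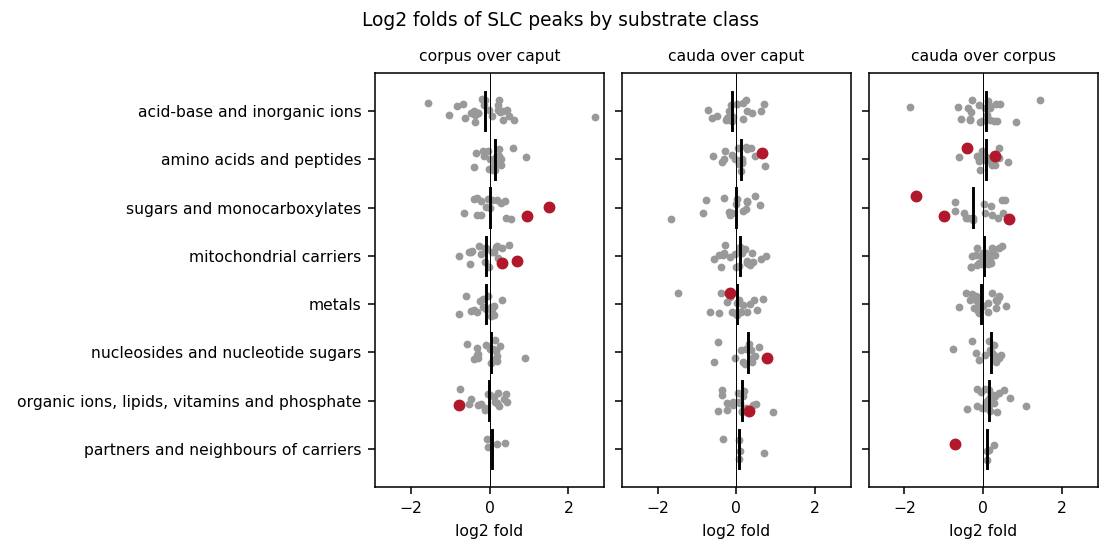
Log2 fold (x axis) of member sites in the authors' deposited table of each comparison, by substrate class (rows). Red points are called at an adjusted p under 0.05, grey points are not, and black bars are class medians, which lie between -0.26 and 0.29.

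Large folds were not always called. SLC26A2, a sulfate carrier, had a log2 fold of 2.67 for corpus over caput with an adjusted p of 0.22, per the authors' deposited table, on a peak of 151 bases. SLC30A1, which exports zinc from the cell, had -1.47 for cauda over caput with an adjusted p of 0.10, per the authors' deposited table. SLC30A4, a zinc carrier of vesicles, had -0.68 for cauda over caput with an adjusted p of 0.054, just outside the threshold in the authors' deposited table. SLC40A1, the iron exporter ferroportin, had 0.34 for cauda over caput with an adjusted p of 0.069, per the authors' deposited table.

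Several members carried more than 1 peak: 45 of 128 had at least 2 sites in some comparison. For corpus over caput, 24.3% of member genes with a site had 2 or more, against 43.9% of all genes. For cauda over caput it was 28.8% against 43%, and for cauda over corpus 30.4% against 43.8%. All sites of such a gene had the same sign in 11 of 25, 15 of 30 and 16 of 31 members in these comparisons of the authors' deposited table. These shares were 44%, 50% and 51.6%, against 39.7%, 41% and 41.6% of all genes with 2 or more sites, per the authors' deposited table. Members had 1.36, 1.35 and 1.45 sites per gene in these comparisons, against 1.75, 1.7 and 1.73 over all genes. The most in 1 gene was 4, 4 and 5 for members and 19, 17 and 20 over all genes. Fewer sites share a sign more readily, so the higher shares are not read as a trait of SLC genes. Sites joined across introns made up 30% of member sites for corpus over caput, against 58.1% of all sites. Median peak length was alike, 250 bases for members and 251 bases for all sites in that comparison.

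The lists of candidate adenosines held 1185 positions within member peaks, 232 of them classed as m6A from low confidence upwards. In cauda 196 of 958 positions were so classed, 20.5% (95% Wilson interval 18 to 23.1), in corpus 185 of 921, 20.1% (17.6 to 22.8), and in caput 179 of 858, 20.9% (18.3 to 23.7). Other listed positions gave 19.1% in cauda, 19.3% in corpus and 19.1% in caput, within the intervals of the members. These intervals cover counting error only, and neighbouring positions of 1 peak are not independent. The score belongs to the position and not to a region, so it is no measure of the strength of methylation in a region.

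The very high confidence class held 17 positions in 15 members. Its share of member positions was 1.36% in cauda, 1.74% in corpus and 1.52% in caput. Among other listed positions it was higher, at 2.07%, 2.13% and 2.08%. The highest score was 0.743 in SLC25A37, the mitochondrial iron importer mitoferrin-1, at position 5809028 of chromosome 7, listed in all 3 regions. SLC30A1 followed with 0.719, then SLC15A4, a lysosomal histidine and peptide carrier, with 0.718, and the glucose carrier family member SLC2A12 with 0.711. SLC25A44, which brings branched-chain amino acids into mitochondria, had the most positions classed as m6A, 11 of 33, with scores of 0.700 and 0.692 in the very high class. SLC25A23, a mitochondrial carrier of ATP-magnesium and phosphate, had the most candidates, 48, of which 6 were classed as m6A.

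The zinc carrier families differed in these counts. The SLC30 family, which moves zinc out of the cytosol, had 19 of 68 positions classed as m6A (27.9%, interval 18.7 to 39.6), in 5 of 5 members. The SLC39 family, which moves zinc and other metals into the cytosol, had 3 of 48 (6.25%, interval 2.15 to 16.8), in 2 of 8 members. The SLC30 family held 4 of the very high confidence positions and the SLC39 family 0. The families were picked for this contrast after their values were seen, and it was not tested. Mitochondrial SLC25 carriers had 52 of 249 (20.9%) and the nucleotide-sugar SLC35 family 24 of 93 (25.8%).

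Candidates of 82 members (64.1%) were in the lists of all 3 regions, those of 20 (15.6%) in 2 and those of 16 (12.5%) in 1, while 10 had none. Of the 118 members with candidates, 69.5% were in 3 lists, 16.9% in 2 and 13.6% in 1, close to the 69.9%, 16.3% and 13.8% of all genes with candidates in the span of 1 gene. The members in 1 list beside SLC18A2 and SLC5A6 included SLC26A11, a sulfate carrier with 6 positions in caput alone. Slc26a3, the chloride-bicarbonate exchanger of apical membranes, had 5 positions in corpus alone. SLC6A6, the taurine carrier, had 4 positions in cauda alone. The chloride cotransporter SLC12A2 and the mitochondrial sodium-calcium exchanger SLC8B1 were among the 10 with none.

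Input levels of the members were moderate. The median over members of their median level was 6.99 FPKM, against 0.361 FPKM for the 230 SLC genes with no site and 9.16 FPKM for the other genes with a site. A median of at least 1 FPKM was found in 115 members (89.8%), against 36.5% of SLC genes with no site and 92.3% of other genes with a site. A peak needs reads, so the contrast with SLC genes without a site is set in part by the choice of members. Some abundant SLC genes had no listed peak: SLC25A6, an ADP/ATP carrier, had a median of 858 FPKM and SLC25A3, the mitochondrial phosphate carrier, 308 FPKM, and neither had one. In contrast, Slc47a1, an exporter of organic cations, was listed at 0 in 8 of 9 input libraries and at 0.0938 FPKM in EA2_1, and still had a site.

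SLC1A5, the sodium-dependent exchanger of glutamine and other neutral amino acids, was the most abundant member and one of the most variable. It had 348, 929 and 685 FPKM in the libraries coded EA, 119, 133 and 180 FPKM in those coded EB, and 15.4, 14.9 and 46.9 FPKM in those coded EC. The EA libraries were all above, and the EC libraries all below, the other 6. Its candidates numbered 10 in cauda, 15 in corpus and 0 in caput, and its folds for corpus over caput were 0.00 and 0.17, not called in the authors' deposited table. Its family member SLC1A4, a neutral amino acid exchanger, had 6.26, 3.62 and 11 FPKM in EA, 28.95, 26.8 and 24.6 FPKM in EB, and 6.84, 6.01 and 9.63 FPKM in EC, so the EB libraries were all the highest.

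Members of one role lay apart in different codes. SLC39A8 had 43.7, 56.9 and 96.4 FPKM in EA, 120, 63.8 and 81.3 FPKM in EB, and 4.66, 7.84 and 9.79 FPKM in EC, with EC below all others. Its relatives SLC39A6 and SLC39A11 were lowest in EA, while SLC39A7, a zinc carrier of the endoplasmic reticulum, was highest there. SLC35F3 had 0.0435, 0.0836 and 0.452 FPKM in EA, 5, 1.98 and 3.16 FPKM in EB, and 6.62, 7.34 and 9.85 FPKM in EC, so EA was lowest and EC highest. SLC46A2 had 17.6, 8.17 and 24 FPKM in EA, 71.0, 31.9 and 98.4 FPKM in EB, and 73.0, 94.1 and 122 FPKM in EC, with EA below all others. SLC6A6 had 2.11, 1.37 and 1.42 FPKM in EA, 2.33, 1.35 and 1.35 FPKM in EB, and 14.9, 7.64 and 14.1 FPKM in EC, with EC above all others.

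**Figure D4:**
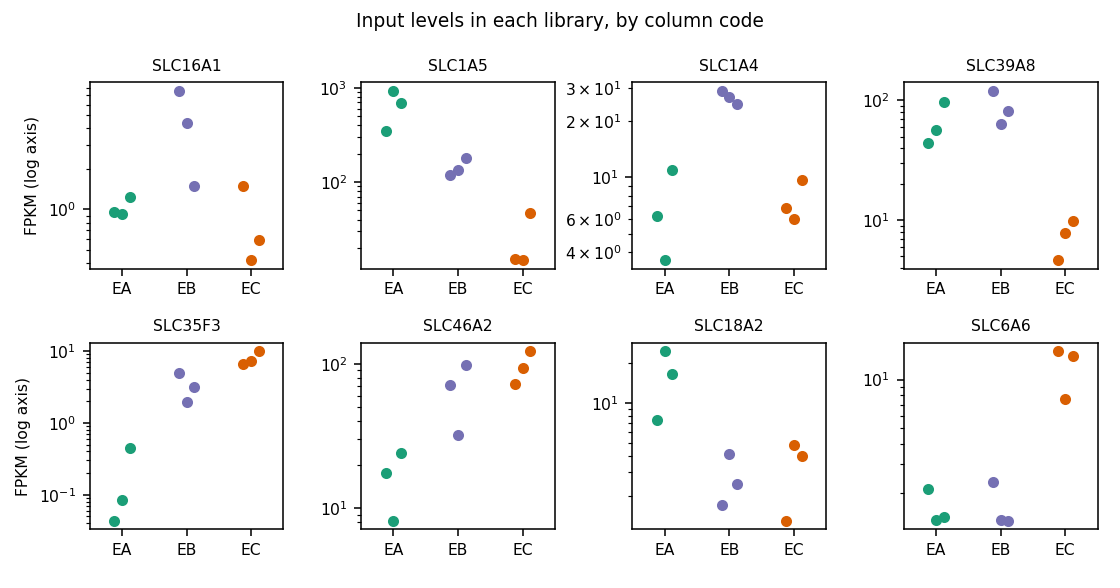
Input level in FPKM (y axes, log scale, own range per panel) of 8 SLC members in each of the 9 libraries, by column code; each point is 1 library. SLC1A5 falls apart into all 3 codes, SLC16A1 and SLC39A8 have their highest value in a library coded EB, and SLC6A6 is high in EC.

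Members whose 3 libraries of 1 code all lay beyond the other 6 were counted beside all genes with a site. EA was above in 10 members (7.81%, against 5.33%) and below in 14 (10.9%, against 7.00%). EB was above in 8 (6.25%, against 4.55%) and below in 8 (6.25%, against 6.87%). EC was above in 10 (7.81%, against 7.66%) and below in 7 (5.47%, against 3.93%). Without the library coded EC2_2 the EC count above became 20, and the share of all genes with a site rose to 11.6%. With 1 library fewer to satisfy, such counts can only stay or rise. In 80 members no code lay apart.

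EC2_2 stood apart from the other EC libraries in markers. The summed level of the sperm and spermatid markers, 4 of 5 measured, was 1674 FPKM in EC2_2, against 331 FPKM in EC3_2 and 330 FPKM in EC4_1, and none was at 0. Over EA it was 611 to 941 FPKM and over EB 15.9 to 89 FPKM. Epithelial markers of the epididymis, 8 of 8 measured, summed to 27023 to 35655 FPKM in EA, 22121 to 26496 FPKM in EB and 8951 to 14420 FPKM in EC. NPC2 and CLU made up most of that sum, and the other markers did not all follow it. AQP9 was at 361 to 503 FPKM in EA, 458 to 728 FPKM in EB and 329 to 483 FPKM in EC. LCN8 was at 9.93 to 25.3 FPKM in EA, 57.1 to 243 FPKM in EB and 8.16 to 110 FPKM in EC. GPX5 was at 1002 to 2639 FPKM in EA, 1.23 to 60.2 FPKM in EB and 2.49 to 3.84 FPKM in EC. The epithelial sum is therefore not read as the share of epithelial cells. Smooth muscle markers summed to 2835 to 4012 FPKM in EA, 2811 to 3020 FPKM in EB and 4193 to 5550 FPKM in EC. ACTA2 made up most of this smooth muscle sum, and ACTA2 and MYH11 were highest in the EC libraries. DES was at 542 to 1218 FPKM in EA, 533 to 944 FPKM in EB and 821 to 1427 FPKM in EC. ACTG2 was at 146 to 308 FPKM in EA, 143 to 170 FPKM in EB and 225 to 442 FPKM in EC. For DES and ACTG2 the EC libraries thus overlapped those of other codes. The part of cell makeup in the levels of members such as SLC1A5 and SLC39A8 was not tested.

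**Figure D5:**
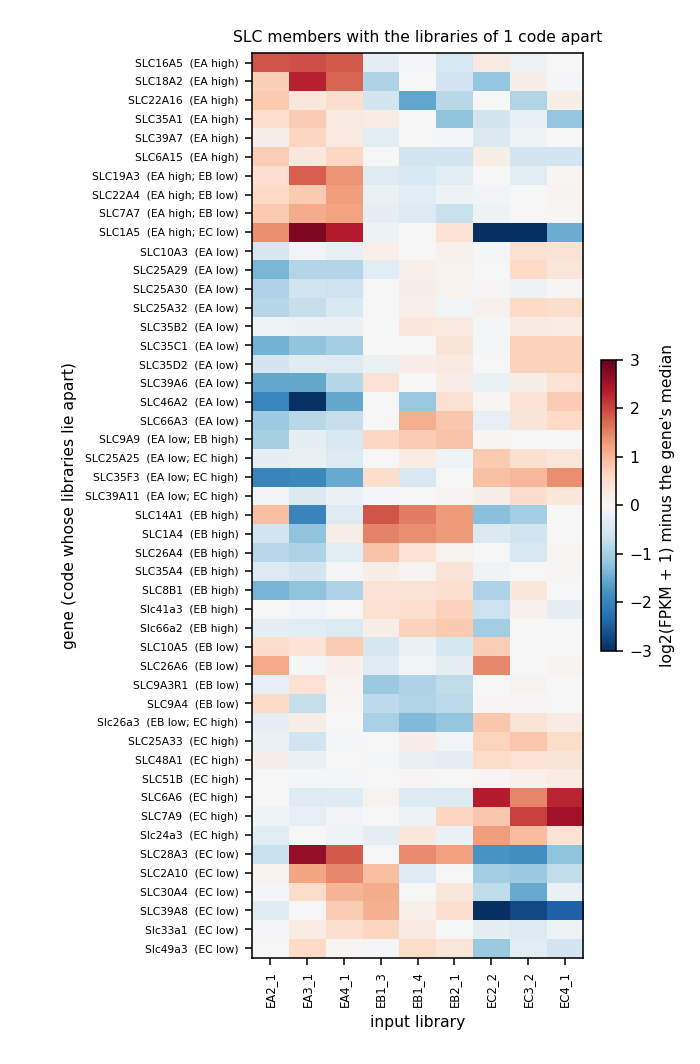
Input level of the 48 members with the libraries of 1 code apart (rows, the code and direction in brackets) in the 9 libraries (columns), as log2(FPKM + 1) minus the gene's median, with the colour scale clipped at both ends. SLC1A5 is red in EA and blue in EC, and SLC39A8 is blue in EC.

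By role, the genes apart in EA included the monocarboxylate family member SLC16A5, at 16.3 to 17.6 FPKM in EA, 2.47 to 3.71 FPKM in EB and 3.35 to 4.86 FPKM in EC. SLC7A7, a cationic amino acid exchanger of basolateral membranes, was at 5.49 to 7.78 FPKM in EA, 1.37 to 2.16 FPKM in EB and 2.42 to 2.93 FPKM in EC. SLC7A9, a cystine and cationic amino acid exchanger, was at 21.2 to 23.8 FPKM in EA, 22.4 to 39.5 FPKM in EB and 44.9 to 148 FPKM in EC, with EC the highest. Among acid-base carriers, Slc26a3 was at 8.75 to 12.5 FPKM in EA, 3.78 to 5.09 FPKM in EB and 13.2 to 19.8 FPKM in EC. SLC9A9, an endosomal sodium-proton exchanger, was at 1.23 to 2.63 FPKM in EA, 5.81 to 7.01 FPKM in EB and 3.37 to 3.61 FPKM in EC, the 3 codes not overlapping. The urea carrier SLC14A1 was at 0.848 to 12.7 FPKM in EA, 16.9 to 26.3 FPKM in EB and 2.06 to 6.34 FPKM in EC, with EB the highest.

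The nucleoside carrier SLC28A3 ranged widely, at 1.498 to 23.5 FPKM in EA, 2.96 to 9.59 FPKM in EB and 0.109 to 0.713 FPKM in EC. The nucleotide-sugar carriers lay apart in both directions: SLC35A1, the CMP-sialic acid carrier, was highest in EA, while SLC35C1, the GDP-fucose carrier, SLC35B2, the carrier of the sulfate donor PAPS, and SLC35D2 were lowest there. SLC35C1 was at 2.10 to 3.11 FPKM in EA, 7.32 to 9.85 FPKM in EB and 7.09 to 12.5 FPKM in EC. Mitochondrial carriers lowest in EA included SLC25A29, a carrier of basic amino acids, at 39.1 to 55.0 FPKM in EA, 82.1 to 113 FPKM in EB and 102 to 155 FPKM in EC.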

How the data were processed

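Libraries were made from oligo-dT captured, fragmented mRNA with dUTP second strands and read as pairs, per the labels' protocols. The submitters' processing notes name HISAT2, Trimmomatic and deepTools. The peak caller, site predictor, differential test and genome build: not given in the sources used here. The deposited comparison tables give, per the file headers, the authors' ratio (fold), its log2 value, a p-value and an adjusted p-value per peak. Folds are read as first-named over second-named region: over all unspliced sites listed in 1 of the 2 regions alone, the median log2 fold was 0.32, 0.39 and 0.40 where the first was listed and -0.38, -0.27 and -0.30 where the second was. The deposited region lists give the authors' combined score per candidate adenosine, and each position was counted once. The deposited expression table gives FPKM values by the authors; its depth is unknown, and its 9 input columns were used by code only.

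Positions were assigned to members through peak spans, introns included, and 3 of 118 members share positions with another gene's span. Peaks of different comparisons were matched by any shared base in the same gene. Coordinates count from 1. Shares have 95% Wilson intervals (statsmodels 0.14.6, pandas 2.3.3), and no test across genes was run beyond the authors' own. The rule that finds libraries apart was tested on simulated data. The members, families and lists were chosen with earlier results of these data known. Named genes were SLC16A1, members with a called peak, up to 10 more per comparison by lowest unadjusted p, the 5 highest and lowest folds at an unadjusted p under 0.05, the 10 highest scores, the 10 highest levels, the 2 members with most m6A positions per family of at least 5, and members in 1 region list. Others named in the text were chosen after their values were seen: SLC12A2, SLC25A3, SLC25A6, those that lay apart by code and those with 1 outlying library. A called member gene is not reported here, though counts over all members include it.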

Additional observations from a re-analysis of the deposited data

Results flagged for a closer look

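Each of the 128 members was checked for 1 input library far from the other 8, and 10 had one; chance flags about 1 gene in 20. The library coded EC2_2 was the high one in 4: SLC12A4, a potassium-chloride cotransporter, had 13.5 FPKM there and at most 10.3 FPKM elsewhere, SLC43A1 had 7.93 and 5.30 FPKM, SLC29A3 7.61 and 4.73 FPKM, and the phosphate carrier SLC20A2 6.50 and 4.94 FPKM. EB1_3 was high for SLC38A2, an amino acid carrier, with 24.3 FPKM and at most 14.4 FPKM elsewhere, and for SLC46A3 with 6.47 and 3.71 FPKM. EA3_1 was high for SLC35F6 with 14.1 FPKM and at most 9.02 FPKM elsewhere. EC4_1 was high for SLC16A14 with 1.71 FPKM and at most 0.943 FPKM elsewhere. EA2_1 was low for Slc20a1 with 10.3 FPKM, against at least 15.3 FPKM elsewhere, and was the one library with Slc47a1 above 0, at 0.0938 FPKM.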

How the results depend on the processing

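Counts of called member sites moved with the threshold applied to the authors' deposited table. At an unadjusted p under 0.05 they were 29 for corpus over caput, 34 when cauda was set over caput and 21 when cauda was set over corpus; at an adjusted p under 0.01 they were 2, 1 and 2; with at least a 2-fold change they were 1, 0 and 2, all of them on SLC16A1. At the stricter adjusted p and with the 2-fold change, the share of all sites called was not counted. The member counts at these settings are therefore not read as a trait of SLC peaks. Counting genes in place of sites gave 4, 5 and 5. With the high and very high classes alone, the share of positions classed as m6A was 7.2% in cauda, 7.27% in corpus and 7.11% in caput, since fewer classes are counted. In counts this was 69 of 958, 67 of 921 and 61 of 858 member positions. Other listed positions gave 7760 of 102739, 7557 of 98626 and 7728 of 102604. Requiring a gap of 1.5 times left EA above in 5 and below in 3 members, EB above in 2 and below in 2, and EC above in 2 and below in 4. Leaving out EC2_2, an alternative chosen after seeing the data, gave EC above in 20 and below in 10. It also gave EA above in 13 and below in 19, and EB above in 10 and below in 9. With 1 library fewer to satisfy, such counts can only stay or rise. The part of EC2_2 itself in the rise was not tested. Beside the counts with a gap of 1.5 times, no share over all genes with a site was taken. Without EC2_2 it was taken for EC above alone, at 11.6%. The other counts are therefore not read as traits of SLC genes. The median level on the log2(FPKM + 1) scale was 2.998 with all libraries and 2.93 to 3.04 with any 1 left out. In all, 32 recomputed values, among them these medians and the counts by gene, stayed within 1.5 times of the main count or within the spread or interval of the main value. Another 18 planned values and 1 unplanned value moved beyond those bounds. Among them were all counts of called sites at other thresholds and all counts with a gap of 1.5 times. No paired analysis was possible because the input columns carry codes that match no label and the other results come from the authors' own tables.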
